A study of Mus musculus with 8 samples.

Results

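Cadherins and protocadherins were examined in sorted cells of the mouse limb bud, as the 106 probe sets of the array whose single gene symbol is a numbered Cdh gene, a Pcdh gene or one of Fat1 to Fat4. They stand for 60 genes, of 18193 genes with a single symbol on the array, and no measured value entered the rule. All embryos were Shhgfpcre heterozygotes at stage E10.5, so that both groups carry the allele, which marks cells that express Shh with green fluorescent protein (GFP). Cells with GFP, from the zone of polarizing activity (ZPA) at the posterior margin, were separated by flow sorting from the limb cells without it (non-ZPA). There were 4 samples of each, and their RNA was measured on Affymetrix Mouse430_2 arrays. The labels do not say whether forelimbs and hindlimbs were pooled or how many embryos made a sample. ZPA replicates 1 and 2 hold the same values apart from rounding and were counted as 1 array, ZPA 1+2, which leaves 3 ZPA and 4 non-ZPA arrays.

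Cadherins are calcium-dependent adhesion proteins of the cell surface. Type I and type II cadherins bind the same kind of molecule on the next cell and hold on to the actin cytoskeleton through catenins, so that cells with like cadherins tend to stay together. Protocadherins adhere more weakly and signal from the membrane. The Pcdhb genes are part of a cluster from which each neuron expresses a few, while the non-clustered delta protocadherins include regulators of cell movement in the early embryo. Fat cadherins are very large relatives that take part in planar cell polarity and growth control. In limb mesenchyme, N-cadherin (Cdh2) is known for its part in the condensation that precedes cartilage.

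Values are the authors' scaled signal intensity, given array by array, with n = 3 ZPA and n = 4 non-ZPA arrays. A log2 fold change is the ZPA mean minus the non-ZPA mean of log2(intensity + 16), and ± marks its standard error (SE). A probe set counted as measured where 4 or more of the 8 deposited columns put it past that column's 40th percentile. Of the 106 probe sets 51 were measured, and they stand for 35 genes. Of the 51, 30 were above that level on all 4 non-ZPA arrays and 24 on all 3 ZPA arrays, either of which is enough to pass, and 16 were above it on all 7. On the ZPA side, 11 of the 51 were above it on only 1 array. A gene that passed through 1 group tends to be the higher there, so counts over measured members depend on this filter. The Shh check of the sort gave intensities of 6226 to 12149 on ZPA arrays and 203 to 1085 on non-ZPA arrays. All 10 limb mesenchyme markers were measured, 8 had a log2 fold change above 0, and in 6 the ZPA arrays were all above the non-ZPA arrays. Of all 13341 tested genes, 6634 had a log2 fold change above 0, and in 1036 the ZPA arrays were all above. Lhx2 passed as higher (3.67-fold, limma adjusted p = 0.012), and the list median was 0.80. RNA quality was read from the Actb signal at the 3 prime end over that at the 5 prime end. This ratio was 21.6 for ZPA 4, while the other arrays gave 2.04 to 5.37. The bacterial spike-ins, relative to their mean on the non-ZPA arrays, gave 10.3 on ZPA 1+2, 6.01 on ZPA 4 and 1.44 on ZPA 3, against 0.80 to 1.17 on the non-ZPA arrays, so that the groups did not overlap. The part of this gap in the results was not tested. ZPA 1+2 and non-ZPA 1 and 2 form run 1 by their title numbers and scan days, and the other 4 arrays form run 2.

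Cdh2 and Pcdh8 passed the test as lower in ZPA cells. No member passed as higher, although 13 of the 35 measured genes had a log2 fold change above 0. With each gene represented by its probe set of the highest mean, 2 of the 35 genes passed the test as lower, which is 5.71%, beside 2.02% of all 13341 tested genes. None passed as higher, beside 0.427% of all genes (limma, Benjamini-Hochberg adjusted p under 0.05). An unadjusted limma p under 0.05 was reached by 8 of the 35 members and by 2571 of all 13341 tested genes. Counts at an unadjusted p further on are to be read beside that share. When all probe sets were tested, 4 of 51 passed as lower, or 7.84%, beside 1.36% of all 27816, and none as higher, beside 0.381%. They were 1 each of Cdh2, Pcdh8, Fat4 and Pcdh19. In 7 of the 51 the groups did not overlap, all with ZPA below non-ZPA, beside 8.87% of all probe sets. The median log2 fold change of the 35 genes was -0.41, beside -0.0037 for all tested genes, and 22 of the 35 lay below 0. With no filter on low values the median of the members was -0.13. In 3 of the 35, Cdh2, Pcdh8 and Cdh6, the groups did not overlap, all with ZPA below non-ZPA. Over all tested genes 10.6% did so in that direction. Less RNA of a gene per cell and fewer cells that express it cannot be told apart in these sorted pools.

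**Figure D1:**
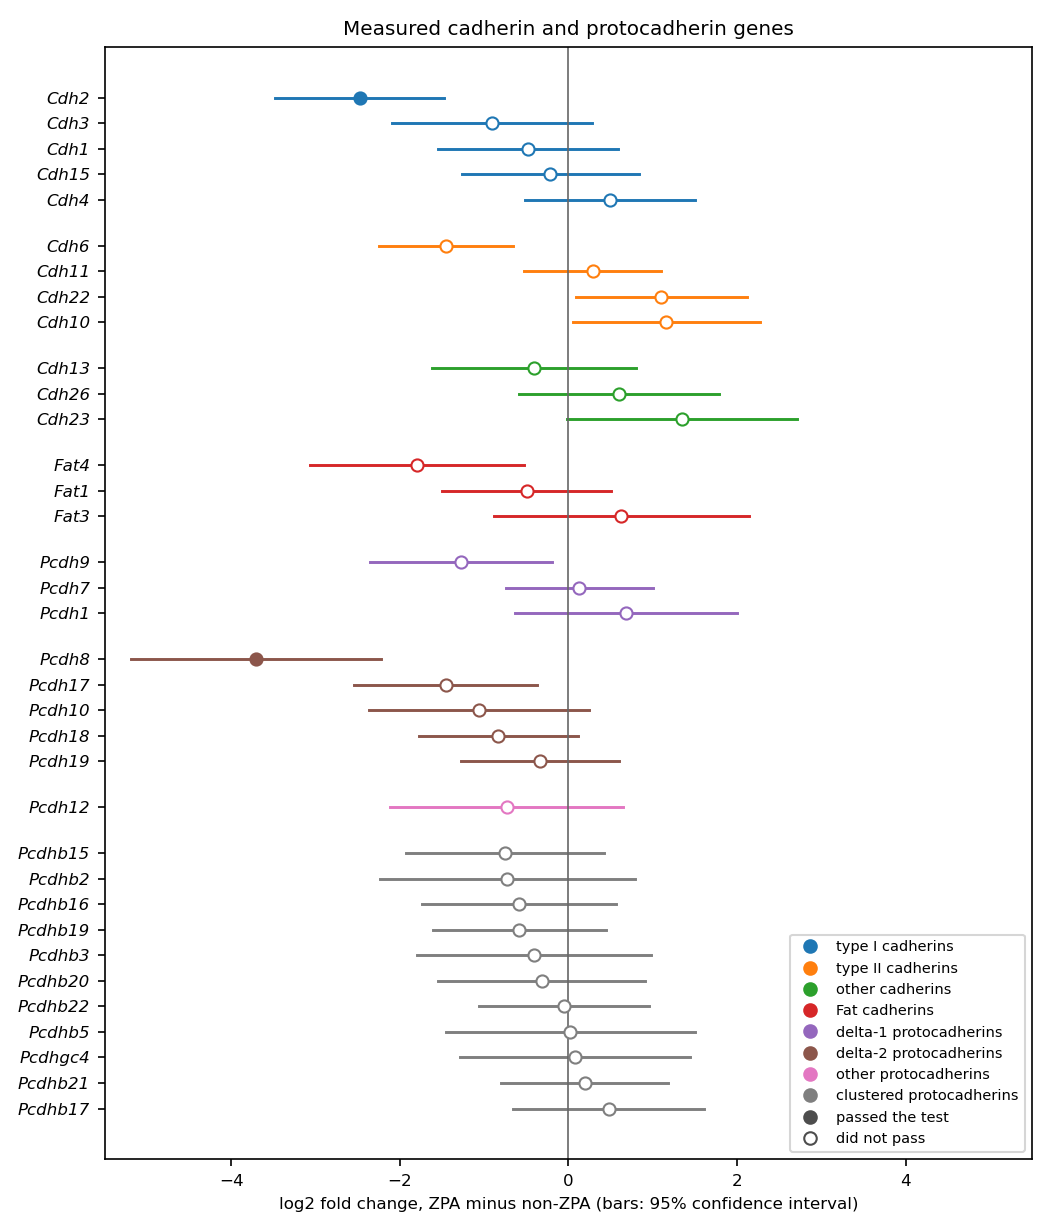
Log2 fold change, ZPA minus non-ZPA, of the 35 measured cadherin and protocadherin genes by family, with 95% confidence intervals from limma. The filled points, Pcdh8 at -3.71 and Cdh2 at -2.48, passed the test, and all 5 delta-2 protocadherins lie below 0.

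The windows before the annotated starts of Pcdh8, Pcdh19 and Fat4 are shown because these genes held 3 of the 4 probe sets that passed. Each is the 250 bases before the start in RefSeq (build GRCm38.p6), written 5′ to 3′ on the strand of the gene. Capitals mark matches on either strand to TATAAA, the TATA box, or to CCAAT, the CCAAT box, which reads ATTGG on the other strand.
Pcdh8, chr14:79771313-79771562, minus strand: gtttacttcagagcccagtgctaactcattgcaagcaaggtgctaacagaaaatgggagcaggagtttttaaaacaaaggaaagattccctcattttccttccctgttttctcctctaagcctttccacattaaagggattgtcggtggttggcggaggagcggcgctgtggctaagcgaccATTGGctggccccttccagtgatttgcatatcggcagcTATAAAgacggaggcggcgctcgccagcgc
Pcdh19, chrX:133688994-133689243, minus strand: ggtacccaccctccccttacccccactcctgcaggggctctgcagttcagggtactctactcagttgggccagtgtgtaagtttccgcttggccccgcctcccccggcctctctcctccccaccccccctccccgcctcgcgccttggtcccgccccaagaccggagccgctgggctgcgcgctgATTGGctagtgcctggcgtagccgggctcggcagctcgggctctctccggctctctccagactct
Fat4, chr3:38886690-38886939, plus strand: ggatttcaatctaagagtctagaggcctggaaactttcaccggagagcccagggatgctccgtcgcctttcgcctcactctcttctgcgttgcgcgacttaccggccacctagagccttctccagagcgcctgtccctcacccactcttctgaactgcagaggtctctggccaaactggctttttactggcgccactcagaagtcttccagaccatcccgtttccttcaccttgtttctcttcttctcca
The Pcdh8 window held TATAAA at 30 to 25 bases before the start and CCAAT on the opposite strand at 68 to 64 bases. The Pcdh19 window held CCAAT on the opposite strand at 65 to 61 bases and had a GC content of 69.2%. The Fat4 window held neither. Of all 32851 windows of this length, 12.4% held TATAAA and 33.9% held CCAAT. Of the 27 windows of member genes, 7.41% held TATAAA and 55.6% held CCAAT. The sequence CAGGTG, an E-box bound by Snail and Zeb repressors in the Cdh1 promoter, was in none of the 3 windows and in 17.2% of all. Of the member windows 14.8% held it.

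Cdh2 led the type I cadherins. Its probe set 1418815_at read 1236, 921 and 266 on ZPA arrays 1+2, 3 and 4. On non-ZPA arrays 1 to 4 it read 4205, 4050.3, 4665 and 2711. Every non-ZPA array was higher than every ZPA array, and the signal was above the 40th percentile on all 7 arrays. Cdh2 fell by 2.48 on the log2 scale (± 0.46 SE, 5.56-fold, limma adjusted p = 0.0157). The difference was -1.73 in run 1 and -2.80 in run 2. The call was lost without non-ZPA replicate 1, 2 or 3, at limma adjusted p = 0.051, 0.0548 and 0.0711, and without the intensity trend in the variance model (0.053).

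The second Cdh2 probe set, 1449244_at, did not show this difference. It read 1121, 557 and 439.9 on the ZPA arrays and 505, 747, 509 and 568 on the non-ZPA arrays, so that the groups overlapped. Its log2 fold change was 0.18 (95% confidence interval -0.63 to 0.98, adjusted p = 0.853 over all probe sets). The ratio of the first to the second probe set was 0.618 to 1.64 on the ZPA arrays and 4.67 to 8.92 on the non-ZPA arrays. The groups' ratios did not overlap. An exact permutation test, 2-sided, gave p = 0.0286, which is the least possible for 3 arrays against 4, and 0.0914 after Benjamini-Hochberg adjustment over 16 such pairs. The pairs of Cdh11, Fat4 and Pcdh8 and a pair of Pcdh19 reached the same p in this test. With the mean of both probe sets Cdh2 was at -1.15 and did not pass (limma adjusted p = 0.148). What each probe set reads of the transcript was not tested.

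Among the markers of condensing mesenchyme, the cartilage regulator Sox9 fell 20.7-fold (limma adjusted p = 0.00304). It read 15.5 to 231 on ZPA arrays and 1754 to 3344 on non-ZPA arrays. It was 1 of 6 tested genes of that list, no other of which passed, and the 6 had a median log2 fold change of -0.80. Their summed signal was 1183 to 3708 on ZPA arrays and 3644 to 7716 on non-ZPA arrays. The part of these cells in the Cdh2 difference was not tested.

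The other type I cadherins did not pass. Cdh1, the E-cadherin of epithelia, read 199, 64.2 and 253 on the ZPA arrays and 144 to 357 on the non-ZPA arrays. The groups overlapped, and the log2 fold change was -0.48 (95% interval -1.55 to 0.59, adjusted p = 0.640). It was 0.32 within run 1, -1.10 within run 2 and 0.047 without ZPA replicate 3, so its direction was not settled. Cdh3, the P-cadherin of basal epithelium, read 94.7, 20.2 and 116 on the ZPA arrays and 189.6, 99.9, 99.4 and 176 on the non-ZPA arrays, at -0.91 (95% interval -2.10 to 0.28, adjusted p = 0.397). Cdh15, the M-cadherin of muscle cells, was at -0.21 and Cdh4, the R-cadherin of retina and other tissues, at 0.50. Cdh4 read 383, 102 and 319 on the ZPA arrays and 172, 192, 113 and 181 on the non-ZPA arrays, and with array weights it was at -0.20.

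The lists of ectoderm, muscle, endothelium, blood and nerve markers were read together with the cadherins known from such cells. Of 12 tested surface ectoderm markers, with a summed signal of 1083 to 2270 on ZPA arrays and 4013 to 7620 on non-ZPA arrays, 2 passed as lower. They were Epcam, an epithelial adhesion protein (7.32-fold, adjusted p = 0.00836), and the desmosome protein Dsp (6.35-fold, adjusted p = 0.0157). Of 7 tested muscle precursor markers 4 passed as lower, with summed signals of 283 to 664 on ZPA arrays and 1813 to 4684 on non-ZPA arrays. Met, Pax3, Myf5 and Eya1 were those 4. Cdh15 read 58.7 to 143 on ZPA arrays and 60.8 to 165 on non-ZPA arrays, which overlap. Of the 9 tested endothelial markers none passed by limma, and 0 had an unadjusted p under 0.05. Cdh5, the cadherin of endothelium, was not measured, with 3.5 to 138 on ZPA arrays and 10.9 to 221 on non-ZPA arrays over its probe sets. Among 7 erythroid markers 2 passed as lower, with summed signals of 18707 to 58826 on ZPA and 37504 to 54554 on non-ZPA arrays. Of 6 markers of neural crest, Schwann cells and neurons, 0 passed by limma and 2 had an unadjusted p under 0.05, with 930.2 to 1229 against 1951 to 2772. The 2 muscle precursor markers Myf5 and Eya1 were below the 40th percentile on every ZPA array, and no tested marker of the other lists in this paragraph was. The part of these cells in the values of the cadherins was not tested.

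Of 11 type II cadherins 4 were measured, and 0 passed by limma, with 3 at an unadjusted p under 0.05. Cdh11, a cadherin of mesenchyme and bone-forming cells, read 7742, 7454 and 3315 on the ZPA arrays and 6164, 6278, 3817 and 3368 on the non-ZPA arrays. The run 1 arrays were the higher in non-ZPA cells, ZPA 1+2 and ZPA 3 lay close together, and the groups overlapped. Its log2 fold change was 0.29 (95% interval -0.53 to 1.10, adjusted p = 0.729). The other Cdh11 probe set was at -0.14 (adjusted p = 0.903).

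Cdh6, a cadherin of kidney and neural crest, came nearest to the threshold among the genes that did not pass. It read 88.4, 139 and 78.9 on the ZPA arrays and 255, 339, 339 and 275 on the non-ZPA arrays. The groups did not overlap, and only 1 ZPA array was above the 40th percentile. The log2 fold change was -1.45 ± 0.37 (limma adjusted p = 0.0584), and its differences in run 1 and run 2 were -1.57 and -1.41. It passed without ZPA replicate 1+2 (-1.38, adjusted p = 0.0353) and without ZPA replicate 3 (-1.67, adjusted p = 0.0441). Its other probe set overlapped between the groups and was at -0.14.

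Cdh22 and Cdh10, type II cadherins studied mostly in brain, had the highest log2 fold changes of this family. Cdh22 read 257, 179 and 342 on the ZPA arrays and 217, 76.5, 62.0 and 127 on the non-ZPA arrays, at a log2 fold change of 1.10 (95% interval 0.086 to 2.12, adjusted p = 0.220 in limma). Cdh10 read 196, 127 and 250.2 against 93.3, 34.1, 150 and 54.9, at 1.16 (adjusted p = 0.237), and its second measured probe set was at 0.30. In both genes 1 non-ZPA array reached into the ZPA range. Cdh5, Cdh7, Cdh8, Cdh9, Cdh18, Cdh19 and Cdh20 were not measured.

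Among the other cadherins, Cdh13, which is anchored to the membrane by a lipid and has no cytoplasmic tail, was at -0.41. Cdh26 was at 0.60. Cdh23, which forms the tip links of hair cells in the ear, was at 1.35 (95% interval -0.014 to 2.71, adjusted p = 0.264). It read 114, 107 and 176 on the ZPA arrays and 20.5, 26.3, 152 and 25.1 on the non-ZPA arrays. It was above the 40th percentile on all 3 ZPA arrays and on 1 non-ZPA array. Cdh16 and Cdh17 were not measured.

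Fat4 was the Fat cadherin with the largest difference. Fat4 is the receptor of Dchs1, and the pair orients cells in many tissues. Probe set 1459749_s_at, which represents the gene, read 847, 303 and 354 on the ZPA arrays and 3034, 3570.4, 847 and 712 on the non-ZPA arrays. The highest ZPA array met the third non-ZPA array, and the run 1 arrays were the higher in both groups. The log2 fold change was -1.79 ± 0.58 (limma adjusted p = 0.119), and it was not called. The difference within run 1 was -1.94 and that within run 2 was -1.21. With the run as a block the gene passed at -1.50 (adjusted p = 0.022).

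The other Fat4 probe set, 1460574_at, passed. It read 479, 109.5 and 59.6 on the ZPA arrays and 2211, 2047, 779.7 and 585 on the non-ZPA arrays, without overlap. It fell by 2.86 on the log2 scale (± 0.62 SE, 7.27-fold, adjusted p = 0.0371 over all probe sets). The differences were -2.11 in run 1 and -2.83 in run 2. The call ended without any 1 array other than ZPA replicate 1+2 and non-ZPA replicate 4, with adjusted p of 0.0834 to 0.123. It also ended with quantile normalization (0.0645), without the intensity trend (0.11) and with ZPA 1 and 2 counted separately (0.0543).

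Fat1, a regulator of cell polarity and migration, read 15726, 3978 and 4069 on the ZPA arrays and 12146, 9232, 9773 and 5862 on the non-ZPA arrays. ZPA 1+2 was the highest and the other 2 ZPA arrays were the lowest of all 7. The log2 fold change was -0.50 (95% interval -1.50 to 0.51, adjusted p = 0.603). It was 0.57 within run 1 and -0.91 within run 2, of opposite sign. Without ZPA replicate 1+2 Fat1 passed as lower (-1.15, limma adjusted p = 0.0216). On that array the spike-in signal was the highest of all, as given above, and its part in this value was not tested. Fat3, known from the shaping of retinal neurons, read 700.3, 198 and 105 against 193, 466, 111 and 51.4, at 0.62 (adjusted p = 0.671). Without ZPA replicate 1+2 Fat3 was at -0.094, of the opposite sign. Fat2 was not measured.

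**Figure D2:**
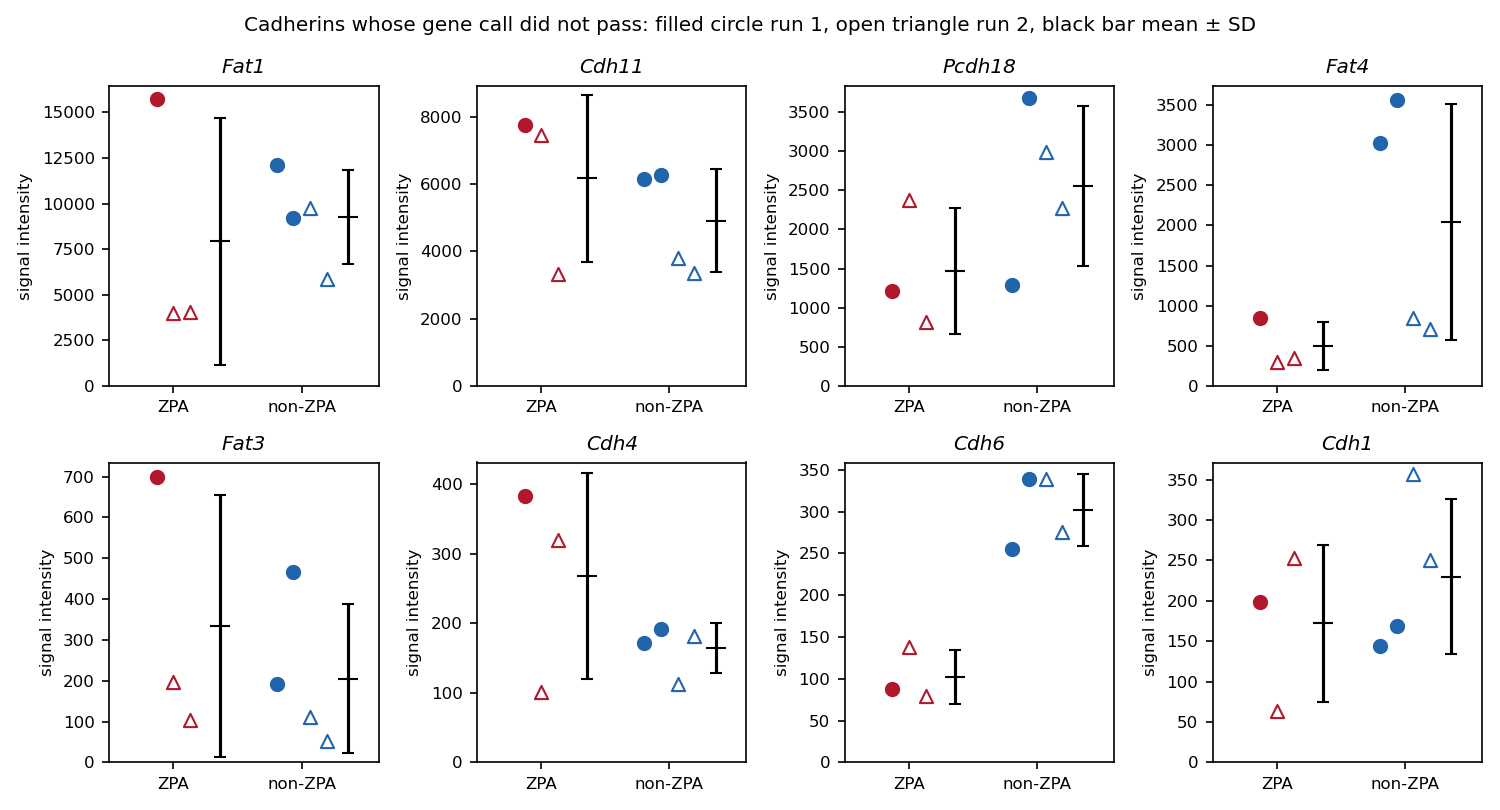
Signal intensity by array of 8 members whose gene call did not pass, named by their high mean signal or their difference, with ZPA in red and non-ZPA in blue. Filled circles are run 1, open triangles are run 2 and the black bars are the mean ± SD, and the Fat4 arrays of run 1 lie above those of run 2 in both groups.

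The delta-2 protocadherins, which signal through the WAVE complex and other cytoplasmic partners, were all measured and all had a log2 fold change below 0. The 5 had a median of -1.06 and a range from -3.71 to -0.33. Only Pcdh8 passed as a gene. All 5 were also below 0 with quantile normalization and with median centring, while Pcdh19 was at 0.71 within run 1 and at 0.03 without ZPA replicate 3. This family was set apart with the values known, and it has no test of its own.

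Pcdh8, or paraxial protocadherin, is known for cell sorting and boundary formation in the paraxial mesoderm. Its probe set 1447825_x_at read 77.7, 88.4 and 4.0 on the ZPA arrays and 1019, 2041, 367 and 389 on the non-ZPA arrays. The ZPA arrays were all lower, and 1 of 3 was above the 40th percentile. Pcdh8 fell by 3.71 on the log2 scale (± 0.68 SE, 13.1-fold, limma adjusted p = 0.0151). The other 2 ZPA values lay below that level, so the size of the fall depends on low readings and on the pseudocount. The difference was -3.96 in run 1 and -3.11 in run 2, and non-ZPA arrays of run 1 read higher than those of run 2.

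The suffix _x_at marks probes that may also match other sequences. The second Pcdh8 probe set, 1417051_at, has no such mark. It read 35.9, 85.1 and 16.5 on the ZPA arrays and 251, 715, 175 and 97.4 on the non-ZPA arrays, again without overlap. Its log2 fold change was -2.20 (± 0.62 SE, adjusted p = 0.0906 over all probe sets), and it did not pass. The log2 ratio of 1447825_x_at to 1417051_at averaged 0.066 on the ZPA arrays and 1.57 on the non-ZPA arrays, and the groups' ratios did not overlap. The exact test used for Cdh2 gave p = 0.0286 (adjusted p = 0.0914 over the 16 pairs). Both probe sets were above the 40th percentile on only 1 of the 3 ZPA arrays, so their ratio there depends on low readings. With the mean of both probe sets, Pcdh8 still passed. The call of the gene was lost without non-ZPA replicate 1 (limma adjusted p = 0.051) or non-ZPA replicate 2 (adjusted p = 0.0524), and in run 2 alone (adjusted p = 0.0637).

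Pcdh19, an X-linked delta-2 protocadherin known from an inherited epilepsy, had 3 measured probe sets that did not move alike. Probe set 1437360_at read 110.0, 83.8 and 37.7 on the ZPA arrays and 229, 328, 752 and 486 on the non-ZPA arrays, without overlap. It fell by 2.27 on the log2 scale (± 0.47 SE, 4.84-fold, limma adjusted p = 0.0314 over all probe sets). The difference was -1.20 in run 1 and -3.08 in run 2. This call ended without any 1 array other than ZPA replicate 1+2 and non-ZPA replicate 1, with adjusted p of 0.0585 to 0.125. It also ended in run 1 alone (0.0636) and without the intensity trend (0.0754).

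Probe set 1455145_at, which represents Pcdh19, read 375, 137 and 260.4 against 190.1, 260.3, 357 and 484, and the groups overlapped. Its log2 fold change was -0.33 (95% interval -1.27 to 0.61, adjusted p = 0.724). The third probe set was at 0.013 and also overlapped. The ratio of 1455145_at to 1437360_at was 1.54 to 5.15 on ZPA arrays and 0.485 to 0.996 on non-ZPA arrays (p = 0.0286 in the same exact test, adjusted p = 0.0914 over the 16 pairs).

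**Figure D3:**
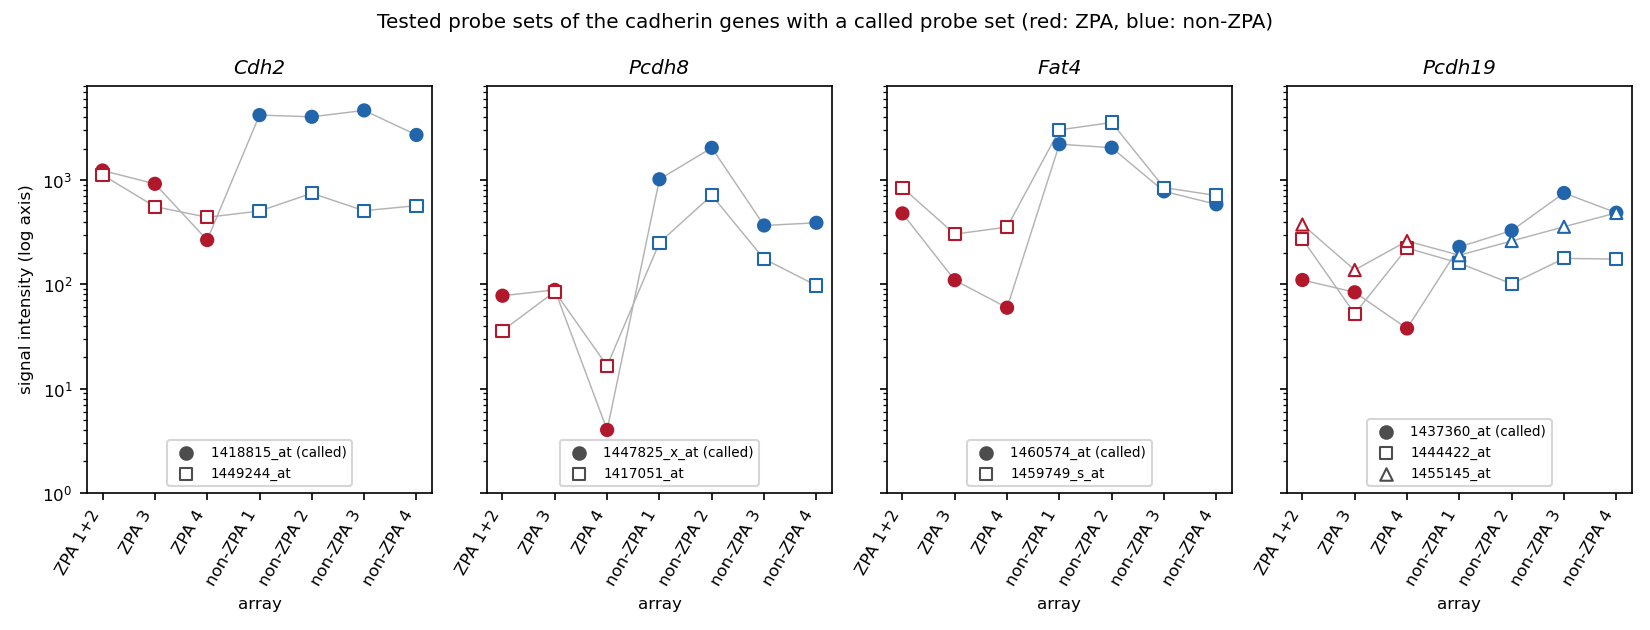
Signal intensity (log axis) on each array of every measured probe set of Cdh2, Pcdh8, Fat4 and Pcdh19, with ZPA in red, non-ZPA in blue and lines that only join points of the same probe set. Filled symbols are the probe sets that passed, and the open symbols of Cdh2 and Pcdh19 overlap between the groups.

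Pcdh17, Pcdh10 and Pcdh18 did not pass. Pcdh17, studied for axon growth, read 35.5, 70.9 and 97.9 on the ZPA arrays and 92.3, 219, 292 and 279 on the non-ZPA arrays. Only the lowest non-ZPA array lay in the ZPA range, and the log2 fold change was -1.46 (95% interval -2.54 to -0.37, adjusted p = 0.135). It was -1.63 in run 1 and -1.60 in run 2. Pcdh10, also studied for axon growth, was at -1.06 (adjusted p = 0.365), with non-ZPA replicate 2 at 812 and the other 3 non-ZPA arrays between 104 and 173. Its probe set 1430667_at, at -1.95, had no overlap (adjusted p = 0.128), and the third measured probe set was at 0.16.

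Pcdh18 read 1214, 2370.3 and 818 on the ZPA arrays and 1287, 3681, 2985 and 2274 on the non-ZPA arrays. The groups overlapped, and the log2 fold change was -0.83 (95% interval -1.78 to 0.11, adjusted p = 0.324). It was -0.84 in run 1 and -0.89 in run 2. The other 2 Pcdh18 probe sets were at 0.12 and 0.47.

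The delta-1 protocadherins, which carry a binding motif for protein phosphatase 1, did not share 1 direction. Pcdh9 was at -1.27 (95% interval -2.35 to -0.20, adjusted p = 0.181), with 40.7, 49.3 and 161 on the ZPA arrays and 220.4, 259, 127 and 193 on the non-ZPA arrays. Its 2 other probe sets were at -0.58 and 0.30. Pcdh7 was at 0.13 (adjusted p = 0.902) and Pcdh1 at 0.69. Pcdh11x was not measured. Pcdh12, a protocadherin of endothelium, read 18.4, 51.5 and 179 on the ZPA arrays and 92.4, 56.9, 155 and 179 on the non-ZPA arrays, at -0.73, and Pcdh15 and Pcdh20 were not measured.

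Of the 23 clustered protocadherins 11 were measured, 10 of 22 Pcdhb genes and Pcdhgc4. None passed by limma, and 0 had an unadjusted p under 0.05. Their log2 fold changes ran from -0.75 for Pcdhb15 to 0.48 for Pcdhb17, with a median of -0.32. Pcdhb15 read 89.9, 85.5 and 21.8 on the ZPA arrays and 74.5, 86.0, 152 and 139 on the non-ZPA arrays (95% interval -1.92 to 0.43). It was 0.14 within run 1 and -1.38 within run 2. Pcdhb22 was at -0.05 and Pcdhb5 at 0.02. Pcdhb genes are related neighbours in the cluster, and probes of 1 gene may read another. Another 6 probe sets carry several Pcdha symbols and are not among the members.

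Of the 60 genes 25 had no measured probe set. The 55 probe sets that were not measured reached at most 317 on any array, a value of Cdh10 on non-ZPA replicate 2. Of these 55, 21 lay below the 40th percentile on every array.

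Probe sets of a gene often disagreed. There were 12 genes with several measured probe sets, and in 6 of these the signs were all alike. Within the runs, 15 of the 35 genes were lower in ZPA cells in both, or 42.9%, 12 were higher in both, or 34.3%, and 8 had opposite signs. Over all tested genes the shares were 28.0% and 26.6%. The non-ZPA arrays of run 1 were both above those of run 2 for 13 members (37.1%, beside 24.1% of all genes) and both below for 5 (14.3%, beside 21.9%).

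Genes that act with cadherins were counted from lists drawn up by function. Of 11 tested catenins and junction linkers 1 passed as lower and 0 as higher. It was Pkp4, a relative of p120 catenin, at 1625, 2002 and 2364 on the ZPA arrays and 4935 to 6465 on the non-ZPA arrays, without overlap (2.74-fold, limma adjusted p = 0.0187). The catenins that join cadherins to actin did not pass. Beta-catenin (Ctnnb1) was at 0.43 (adjusted p = 0.598) and alpha-catenin (Ctnna1) at 0.60 ± 0.27 (adjusted p = 0.245 in limma). Ctnna1 read 19470.3 to 32685 on ZPA arrays and 16358 to 17364 on non-ZPA arrays, without overlap and higher in ZPA. The list median was -0.21.

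Of 13 nectin, desmosome and other junction adhesion genes 2 passed as lower, the Epcam and Dsp given above, and 0 as higher, with a median of -0.18. Of 14 other cadherin relatives and planar polarity genes 1 passed as lower, and 0 as higher, with a median of -0.26. It was Vangl2, a core planar polarity protein, at 1519, 897 and 315 on the ZPA arrays and 2558 to 3638 on the non-ZPA arrays, without overlap (4.13-fold, limma adjusted p = 0.0346). Dchs1, the ligand of Fat4, read 513, 270 and 850.0 against 306, 275, 231 and 198, at 0.94 (adjusted p = 0.229).

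**Figure D4:**
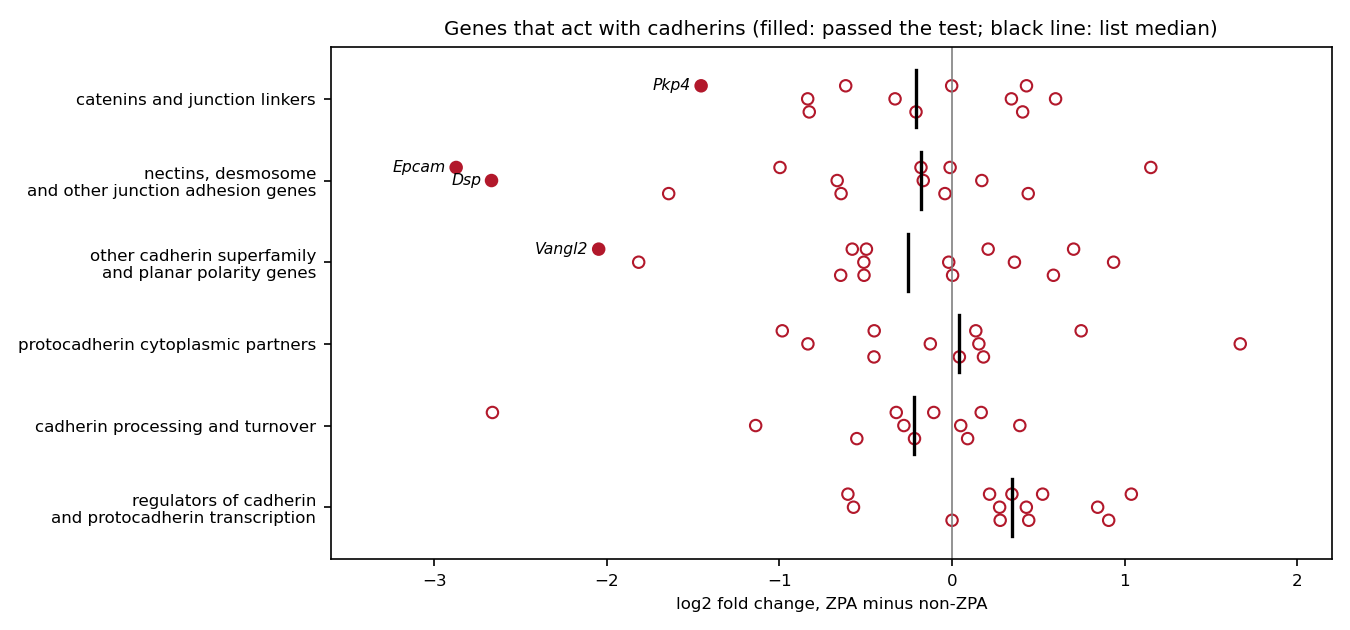
Log2 fold change, ZPA minus non-ZPA, of the tested genes in 6 lists of genes that act with cadherins, with the list median as a black line. Only Pkp4, Epcam, Dsp and Vangl2, the filled points, passed the test, all as lower.

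None of the 11 protocadherin partners in the cytoplasm passed by limma (2 at an unadjusted p under 0.05, median 0.042). Brk1, a WAVE complex subunit, was at 0.14 and Ppp1ca, a protein phosphatase 1 subunit, at 0.15. None of the 11 genes of cadherin processing passed by limma (2 at an unadjusted p under 0.05, median -0.22), with Adam10, a protease that sheds cadherins, at 0.17 and Psenen, a gamma-secretase subunit, at -0.22. None of the 13 regulators of cadherin transcription passed by limma (2 at an unadjusted p under 0.05, median 0.35). Of these 13, 10 had a log2 fold change above 0 and 3 below. Snai2, a repressor of Cdh1 and among those 3, was at -0.57, and the cohesin subunit Rad21 was at 0.43. Calls of Pkp4 and Vangl2 ended without any 1 non-ZPA array (limma adjusted p of 0.0651 to 0.115), and neither passed with the mean of its probe sets or without the intensity trend. Vangl2 also lost its call without ZPA replicate 3 (0.0721), and Dsp without ZPA replicate 3 (0.0632), non-ZPA replicate 2 (0.0556) or non-ZPA replicate 3 (0.068). Dsp also lost it with the mean of its probe sets (-2.04, adjusted p = 0.0562) and in run 2 alone (0.0691).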

How the data were processed

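The analysed values are the authors' deposited intensity, linear and already scaled, for 45101 probe sets. They were produced in GCOS 1.3, per the submitters' processing notes, from 50 ng of RNA amplified in 2 cycles, per the labels. How that software summarised a probe set is not given in the sources used here. Because the mean of every column was 500 once 2% at each end was dropped, no scaling was added. Columns ZPA 1 and 2 differed by at most 0.5 units, and any other pair by at least 11381 units somewhere.

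Tests used log2(intensity + 16), a scale that understates changes of low genes. The 40th percentile lay at 50.8 to 91.9 units and the array medians at 75.2 to 133 units. The 64 control probe sets were dropped. limma 3.58.1 in R 4.3.3 (eBayes with an intensity trend, 2-sided) was fitted over 13341 genes, each by its probe set of highest mean, and over 27816 probe sets, with Benjamini-Hochberg adjustment within each fit. The method was tested on simulated data. No label states separate litters or sorts for the samples, so the p-values describe the spread of these samples, possibly technical in origin, and the number of arrays limits precision.

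Members, families and gene lists were chosen with earlier results of these data known. Values by array are given for members with a called gene or probe set, the 10 members of highest mean and the largest uncalled difference among Cdh genes, clustered and non-clustered protocadherins and Fat genes, and for some others. Partner genes named are those called or, in lists with none, the 2 of highest mean. Ctnnb1, Ctnna1 and Dchs1 were added after their values were seen. Same-numbered ZPA and non-ZPA arrays deviated with correlations of -0.0196 to 0.0784, and other combinations with -0.1036 to 0.0651. The numbers were not treated as pairs, though so few arrays cannot exclude pairing. Alternatives were the pseudocount, scaling, filter, probe set rule, blocks, single runs, variance model, array weights, ZPA 1 and 2 as separate samples, and leaving out each array. Promoter windows came from RefSeq, with 24 member genes matched.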

Additional observations from a re-analysis of the deposited data

Results flagged for a closer look

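Cdh23 on non-ZPA replicate 3 stood apart from the other 3 non-ZPA arrays, at an intensity of 152 against 20.5 to 26.3. The gap was 0.903 of the whole range of the group, above Dixon's critical value for 4 samples. It was 1 of 35 genes examined in this way, and chance marks about 1 in 20 groups.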

How the results depend on the processing

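No member gene or probe set passed as higher under any alternative run. The 2 member genes lower became 1 with the mean of a gene's probe sets, 1 in run 2 alone and 1 without the intensity trend. Of all genes 1.03%, 1.79% and 1.08% passed as lower in these settings, beside 2.02% in the main fit. The 4 member probe sets lower became 0 without the trend. The median of -0.41 moved to 0.079 in run 1 alone. That run has 1 ZPA array, so its counts are not given. The 3 genes without overlap became 8 with quantile normalization, 8 with median centring, 31 in run 1 alone and 12 in run 2 alone. Of the partner genes, the 4 lower became 1 with the mean of probe sets and 2 without the trend. The 0 higher became 1 in run 2 alone, 2 with array weights and 1 with ZPA 1 and 2 counted separately. Of all genes 122, 384 and 254 passed as higher in these settings, beside 57 in the main fit. Leaving out each array gave 0 to 5 member genes lower, 0 to 8 probe sets lower, 3 to 9 genes without overlap, 1 to 8 partner genes lower and 0 to 3 higher. The lowest member gene count came without non-ZPA replicate 1 or 2, where 0.967% and 0.675% of all genes passed as lower. The highest came without ZPA replicate 1+2, where 7.76% of all genes did. The cause was not tested. Median centring moved the median of all genes to -0.257 and that of the members to -0.66. Whether the replicate numbers mark pairs is not settled. As a block they gave 2 genes and 4 probe sets lower, with 1.78% of all genes lower. With the shared array as replicate 2 they gave 3 and 6, with 3.56% of all genes lower. A filter on the 7 distinct arrays, chosen after seeing the data, gave 2 and 4. For single genes and probe sets, 527 values stayed on their side of the threshold, 51 lost a call and 13 gained one, and no called value changed direction. Low ZPA signal limits the sizes given for Pcdh8 and Pcdh19.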

Other observations

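Protocadherin alpha transcripts share their 3 prime exons, and 6 probe sets carry 9 or 14 Pcdha symbols each, so that none could be given to 1 gene. Of these, 1420798_s_at passed the filter, at 142.0, 58.3 and 7.6 on the ZPA arrays and 76.6, 81.1, 77.0 and 22.1 on the non-ZPA arrays. The groups overlapped, with a log2 fold change of -0.20 (limma adjusted p = 0.916 over all probe sets). The others were not tested, and among them 1425017_at read 11.4, 101 and 86.7 on the ZPA arrays and 9.1 to 17.2 on the non-ZPA arrays.

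Among the 55 untested member probe sets, those of Cdh10, Cdh7 and Cdh8 that follow had groups without overlap and were picked out after their values were seen. Cdh10 probe set 1425092_at read 4.7, 43.1 and 36.6 on the ZPA arrays and 147, 317, 125 and 54.0 on the non-ZPA arrays, which is the direction opposite to the measured Cdh10 probe sets. Cdh7 probe set 1456970_at read 10.6 to 31.9 on ZPA arrays and 51.1 to 77.8 on non-ZPA arrays. Cdh8 probe set 1422052_at read 38.5 to 73.1 on ZPA arrays and 7.4 to 17.1 on non-ZPA arrays. These signals are low and have no test.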
